A study of Homo sapiens with 3 samples.

Results

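The subunits of respiratory complexes II to V, together with cytochrome c, were followed in HEK293T, a line derived from human embryonic kidney that takes up siRNA readily. Members were found by gene symbol: SDHA to SDHD for complex II, the UQCR genes and CYC1 for complex III, CYCS for cytochrome c, the nuclear COX4 to COX8 genes for complex IV and the ATP5 genes for complex V. The rule found 53 of the 23284 gene rows. By name, 39 of these are subunits of the general form, 6 are subunit forms of particular tissues, 4 are copies or annotated pseudogenes, 1 is a readthrough transcript and 3 are related proteins. By complex there were 4 rows for complex II, 11 for complex III, 1 for cytochrome c, 17 for complex IV and 20 for complex V. There were 3 libraries of polyadenylated RNA, 1 for each siRNA: an siRNA against Arkadia, an siRNA against ESRP2, and a negative control siRNA. Arkadia, encoded by RNF111, is a RING-type enzyme that attaches ubiquitin and is best known for promoting TGF-beta signals, and ESRP2 is a splicing regulator of epithelial cells. All cells were transfected by a reverse method with a lipid reagent, received no TGF-beta and were harvested 48 h after seeding. The design asks which transcripts differ when each protein is depleted.

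Complex II oxidises succinate and passes the electrons to ubiquinone in the inner mitochondrial membrane. Complex III moves them on to cytochrome c, complex IV hands them to oxygen, and complex V, the ATP synthase, uses the proton gradient that complexes III and IV help to build. Complex II is encoded entirely in the nucleus, while complexes III, IV and V also hold mitochondrially encoded subunits, which were not analysed here.

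RNF111 had an FPKM (fragment number scaled for transcript length and library size) of 1.15 with Arkadia siRNA, 7.65 with ESRP2 siRNA and 6.38 with control siRNA. ESRP2 had 21.2 with Arkadia siRNA, 4.27 with ESRP2 siRNA and 14.8 with control siRNA. Each siRNA target was thus lowest in its own library. The authors' intervals were apart between Arkadia siRNA (0.50 to 1.82) and control siRNA (3.15 to 9.59) for RNF111, and overlapped between ESRP2 siRNA (0.0878 to 9.33) and control siRNA (3.34 to 26.3) for ESRP2. All 8 markers of the HEK293 line reached an FPKM of 1 in at least 1 library, and 2 of 15 markers of other cells did, CD68 and TNNT2. The summed level of those 15 markers was 2.77 with Arkadia siRNA, 1.58 with ESRP2 siRNA and 3.65 with control siRNA, and HBB was at 0 in all 3 libraries. The interval bounds of low genes implied about 8.82 M reads with Arkadia siRNA, 12.2 M with ESRP2 siRNA and 11.8 M with control siRNA. These depths hold only if FPKM was scaled by each library's own reads, which is not given. On that reading the Arkadia siRNA library was the shallowest. With 1 library a group there are no replicates and no test, and each difference below lies between 2 libraries.

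The 39 general subunits were abundant transcripts, and their levels spread widely within each complex. Their median FPKM was 313 with Arkadia siRNA, 254 with ESRP2 siRNA and 253 with control siRNA, against 10.5 with Arkadia siRNA, 12 with ESRP2 siRNA and 11.0 with control siRNA over the 11975 genes compared. COX6A1 was the highest in every library, with an FPKM of 1892 with Arkadia siRNA, 4034 with ESRP2 siRNA and 3536 with control siRNA. The lowest was CYCS with Arkadia siRNA, at 30.6, and with control siRNA, at 35.5, while UQCR11 was the lowest with ESRP2 siRNA, at 43.9. Within complex V the highest subunit had 22.2 times the level of the lowest with Arkadia siRNA, 43.2 times with ESRP2 siRNA and 45.5 times with control siRNA, although these proteins are joined in fixed ratios. All 53 rows together held 2.71% of the summed FPKM with Arkadia siRNA, 3.40% with ESRP2 siRNA and 3.22% with control siRNA. FPKM is a share of the RNA sequenced, so fewer cells of a kind and less of an RNA per cell cannot be told apart in these bulk samples.

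**Figure D1:**
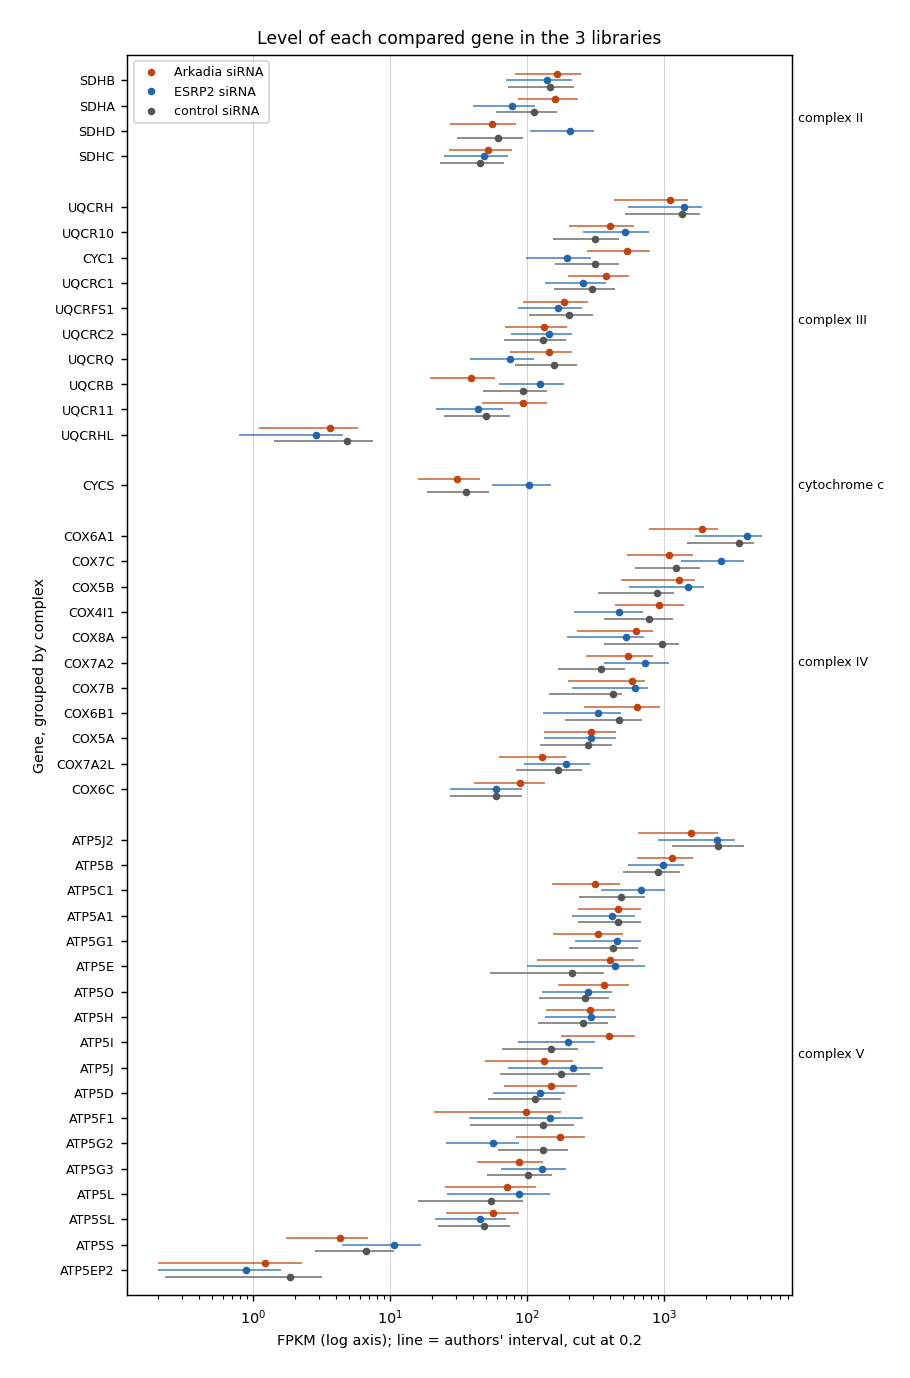
Level of each of the 44 genes compared, as FPKM on a log axis, with the genes grouped by complex and ordered by mean level. Points are the Arkadia siRNA, ESRP2 siRNA and control siRNA libraries and lines are the authors' intervals, which lie apart from those of the other libraries for SDHD and CYCS with ESRP2 siRNA.

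Of the 53 rows, 44 had a mean FPKM of at least 1 and were compared, among them all 39 general subunits. Call sizes below are a ratio of at least 1.5-fold on log2((FPKM + 1)/(FPKM + 1)). With Arkadia siRNA, 5 of 44 were higher than with control siRNA (11.4%, against 10.0% of all genes compared) and 5 were lower (11.4%, against 11.9%). The higher ones were ATP5I, ATP5E, UQCR11, CYC1 and COX7A2, and the lower ones UQCRB, COX6A1, ATP5J2, COX8A and ATP5C1. Both shares lie near the share of all genes. At 2-fold, 1 was higher, ATP5I (2.27%, against 1.95% of all genes), and 1 lower, UQCRB (2.27%, against 2.49%). No member had intervals apart, against 0.443% of all genes. The median log2 ratio of the members was 0.13, against -0.02 over all genes.

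With ESRP2 siRNA, 9 of 44 were higher than with control siRNA (20.5%, against 20.0% of all genes) and 7 were lower (15.9%, against 11.6%). SDHD, CYCS, COX7C, COX7A2, ATP5E, COX5B, UQCR10, ATP5L and ATP5S were higher. ATP5G2, UQCRQ, COX8A, COX4I1, CYC1, ATP5EP2 and UQCRHL were lower. ATP5EP2 is a pseudogene and UQCRHL a copy. Without copy, pseudogene and readthrough rows, 5 of 42 members were lower and 9 higher. At the larger size of 2-fold there were 5 higher members (11.4%, against 5.65%) and 2 lower ones (4.55%, against 2.71%). Intervals were apart for SDHD and CYCS, 4.55% of the members against 1.27% of all genes. The median log2 ratio was 0.10, beside 0.12 over all genes.

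Set directly against each other, Arkadia siRNA had 8 members higher than ESRP2 siRNA (18.2%, against 21.4% of all genes) and 9 lower (20.5%, against 30.8%). ATP5G2, CYC1, UQCR11, SDHA, ATP5I, COX4I1, COX6B1 and UQCRQ were higher with Arkadia siRNA. SDHD, CYCS, UQCRB, COX7C, ATP5S, ATP5C1, COX6A1, ATP5J and ATP5J2 were lower with Arkadia siRNA. At 2-fold, 4 were higher (9.09%, against 9.13%) and 7 lower (15.9%, against 15.6%). The share lower by 1.5-fold was under that of all genes, and the median log2 ratio was 0.00, against -0.13. Intervals were apart for SDHD, CYCS and UQCRB, 6.82% of the members against 6.31% of all genes. In none of the 3 comparisons did 19 of the 44 members pass 1.5-fold. The comparisons with control siRNA share that library. In them ATP5E and COX7A2 were higher in both knockdowns, COX8A was lower in both, and CYC1 was higher with Arkadia siRNA and lower with ESRP2 siRNA.

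**Figure D2:**
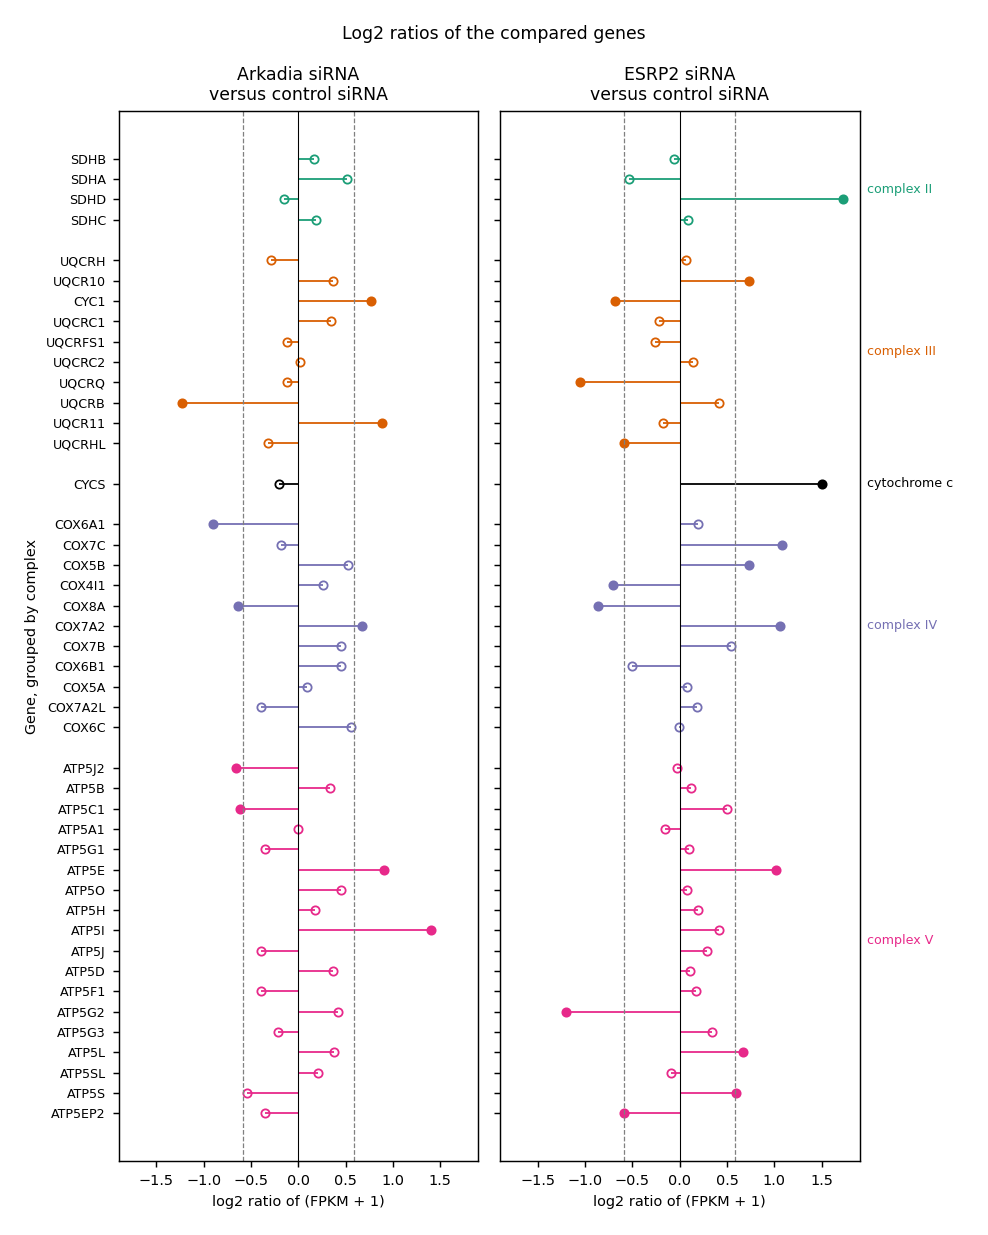
Log2 ratio of (FPKM + 1) of the 44 genes compared, Arkadia siRNA versus control siRNA in the left panel and ESRP2 siRNA versus control siRNA in the right panel, both against the same control library. Filled points lie beyond 1.5-fold (dashed lines), 10 in the left panel and 16 in the right, where SDHD at 1.72 and CYCS at 1.5 lie farthest to the right.

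In complex II the 4 subunits did not move together. SDHD (chromosome 11, 111957571 to 111966518 on hg19, as are all gene positions below), a membrane anchor that helps to bind ubiquinone, had an FPKM of 55.3 with Arkadia siRNA, 205 with ESRP2 siRNA and 61.4 with control siRNA. Its interval of 105 to 305 with ESRP2 siRNA lay above that of 27.3 to 83.3 with Arkadia siRNA and that of 30.4 to 92.3 with control siRNA. SDHD was 3.34-fold higher with ESRP2 siRNA than with control siRNA, a log2 ratio of 1.72. The level in the Arkadia siRNA library was close to control siRNA, with a log2 ratio of -0.15.

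SDHA, the flavoprotein that oxidises succinate, went the other way between the knockdowns. It had an FPKM of 160 with Arkadia siRNA, 76.8 with ESRP2 siRNA and 112 with control siRNA. The difference between the knockdowns was 2.09-fold, a log2 ratio of 1.05, with intervals of 86.1 to 234 with Arkadia siRNA and 40.2 to 113 with ESRP2 siRNA that overlapped. In the deposited values neither knockdown passed 1.5-fold against control siRNA. Under either rescaling, or after length decile medians were subtracted, SDHA was lower by 1.5-fold with ESRP2 siRNA than with control siRNA. SDHB, the iron-sulphur subunit, had 163 with Arkadia siRNA, 140 with ESRP2 siRNA and 146 with control siRNA, and was the most abundant member of the complex with Arkadia and control siRNA.

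SDHC, the other membrane anchor, was the least abundant subunit of complex II at 51.7 with Arkadia siRNA, 48.6 with ESRP2 siRNA and 45.5 with control siRNA. Its gene level thus hardly differed, but the isoforms that made it up did. An isoform of 2852 nt held 87.0% of the SDHC level with Arkadia siRNA, 45.6% with ESRP2 siRNA and 91.2% with control siRNA. An isoform of 2750 nt held 10.4% with Arkadia siRNA, 50.9% with ESRP2 siRNA and 6.20% with control siRNA. The shorter isoform lacks 102 nt, a coding exon, exon 3 of the longer one (chr1:161328396-161328497 on GRCh38, plus strand), whose length is a multiple of the codon length. The exon is shown in full because its presence separates the isoforms, and carries no capitals because no base in it is singled out.
SDHC exon: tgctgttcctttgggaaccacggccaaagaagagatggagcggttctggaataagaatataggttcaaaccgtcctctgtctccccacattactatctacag

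The isoform without this exon had an FPKM of 5.37 (0 to 13.1) with Arkadia siRNA, 24.7 (8.15 to 41.2) with ESRP2 siRNA and 2.82 (0 to 8.30) with control siRNA. The intervals of ESRP2 and control siRNA met narrowly, so the authors' bounds did not separate them. The isoform with the exon had 45 (21.7 to 68.3) with Arkadia siRNA, 22.1 (6.50 to 37.8) with ESRP2 siRNA and 41.5 (20.3 to 62.7) with control siRNA. Between ESRP2 and control siRNA, 45.7 percentage points of SDHC changed isoform, and between Arkadia and ESRP2 siRNA 41.5 points did. A usage change of at least 25 points was found for 2 of 16 members that could be compared between ESRP2 and control siRNA, against 20.0% of 3455 genes. It was found for 1 of 16 between Arkadia and control siRNA (17.1% of genes) and for 2 of 16 between Arkadia and ESRP2 siRNA (26.3% of genes). The other member past this size was ATP5SL, named for its likeness to ATP5S, at 30.1 points between Arkadia and control siRNA, 35.3 between ESRP2 and control siRNA and 37.3 between the knockdowns. The median usage change of the 16 members was 3.64 points between Arkadia and control siRNA, against 8.46 over all genes, and 1.58 between ESRP2 and control siRNA, against 8.96.

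**Figure D3:**
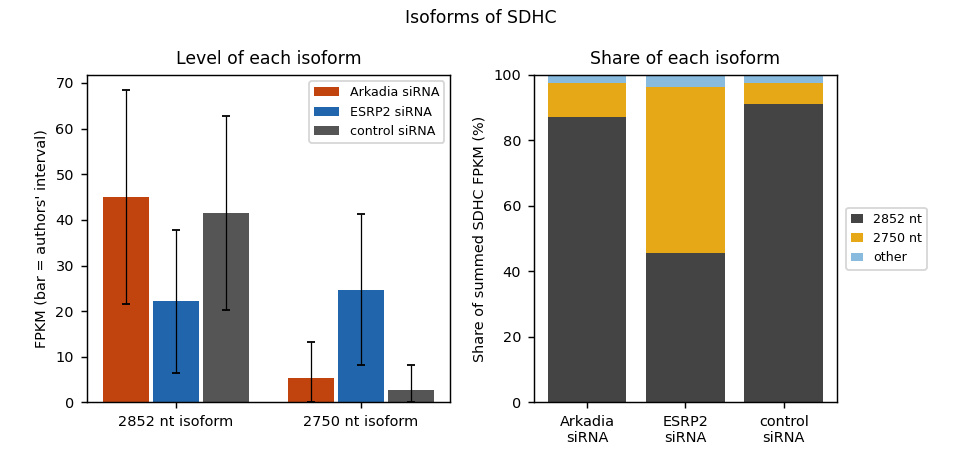
Left, FPKM of the SDHC isoforms of 2852 nt and 2750 nt with Arkadia siRNA, ESRP2 siRNA and control siRNA (bars are the values, lines the authors' intervals). Right, the share of each isoform in the summed SDHC FPKM of each library: the 2750 nt isoform holds 50.9% with ESRP2 siRNA, beside 10.4% with Arkadia siRNA and 6.20% with control siRNA.

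Complex III held members that moved in opposite directions in the same library. UQCRB (chromosome 8, 97238904 to 97247862), a ubiquinone-binding subunit, had an FPKM of 38.9 with Arkadia siRNA, 124 with ESRP2 siRNA and 92.9 with control siRNA. It was 2.39-fold lower with Arkadia siRNA than with control siRNA, a log2 ratio of -1.23, the largest fall among the members in that comparison. Its interval of 19.4 to 58.5 with Arkadia siRNA lay below that of 62 to 186 with ESRP2 siRNA, and overlapped that of 47.8 to 138 with control siRNA.

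CYC1 (chromosome 8, 145149960 to 145152428) encodes cytochrome c1, the haem subunit that reduces cytochrome c. It had 531 with Arkadia siRNA, 194 with ESRP2 siRNA and 311 with control siRNA, so it was 1.71-fold higher with Arkadia siRNA and 1.61-fold lower with ESRP2 siRNA than with control siRNA. CYC1 was the only member past 1.5-fold in opposite directions in the comparisons with control siRNA. UQCR11, a small subunit, had 92.8 with Arkadia siRNA, 43.9 with ESRP2 siRNA and 49.8 with control siRNA, with log2 ratios of 0.88 for Arkadia siRNA and -0.18 for ESRP2 siRNA against control siRNA. Intervals of the 3 libraries overlapped for CYC1 and for UQCR11.

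The small subunits UQCRQ and UQCR10 differed with ESRP2 siRNA. UQCRQ had an FPKM of 144 with Arkadia siRNA, 75.1 with ESRP2 siRNA and 157 with control siRNA, and was 2.09-fold lower with ESRP2 siRNA than with control siRNA. UQCR10 had 401 with Arkadia siRNA, 515 with ESRP2 siRNA and 310 with control siRNA, and was 1.66-fold higher with ESRP2 siRNA. The log2 ratios of these small subunits were therefore -1.05 and 0.73 in the same library pair, with overlapping intervals in each case.

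The Rieske protein, the core proteins and the hinge protein of complex III stayed within 1.5-fold in the deposited values. UQCRFS1, the Rieske iron-sulphur protein, had an FPKM of 185 with Arkadia siRNA, 168 with ESRP2 siRNA and 202 with control siRNA. UQCRC2, core protein 2, had 132 with Arkadia siRNA, 144 with ESRP2 siRNA and 130 with control siRNA. UQCRC1, core protein 1, had 376 with Arkadia siRNA, 254 with ESRP2 siRNA and 296 with control siRNA, the widest range of these 3. UQCRH, the hinge protein that contacts cytochrome c1 and the most abundant member of the complex, had 1102 with Arkadia siRNA, 1404 with ESRP2 siRNA and 1343 with control siRNA.

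CYCS (chromosome 7, 25158270 to 25164980) encodes cytochrome c, the mobile carrier between complexes III and IV that also triggers apoptosis when it leaves the mitochondria. It had an FPKM of 30.6 with Arkadia siRNA, 102 with ESRP2 siRNA and 35.5 with control siRNA. The interval of 55.2 to 150 with ESRP2 siRNA lay above those of 15.8 to 45.5 with Arkadia siRNA and 18.4 to 52.6 with control siRNA. CYCS was 2.89-fold higher with ESRP2 siRNA than with control siRNA, a log2 ratio of 1.5, and 3.35-fold lower with Arkadia siRNA than with ESRP2 siRNA. GENCODE 29 lists 40 pseudogenes named after CYCS, the most of any member, and how reads were shared with them is not given in the sources used here.

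In complex IV the members again moved in different directions. COX7C, a small membrane subunit, had an FPKM of 1075 with Arkadia siRNA, 2580 with ESRP2 siRNA and 1219 with control siRNA, and was 2.12-fold higher with ESRP2 siRNA than with control siRNA. COX7A2, the general form of subunit 7A, had 547 with Arkadia siRNA, 720 with ESRP2 siRNA and 344 with control siRNA. COX7A2 was higher in both knockdowns, by 1.59-fold with Arkadia siRNA and 2.09-fold with ESRP2 siRNA, each against the same control library. After the medians of all genes in deciles of transcript length were subtracted, COX7A2 no longer passed 1.5-fold with Arkadia siRNA (log2 ratio 0.53).

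COX8A, the general form of subunit 8, was the member lower in both knockdowns. Its FPKM was 618 with Arkadia siRNA, 529 with ESRP2 siRNA and 966 with control siRNA, a log2 ratio of -0.64 with Arkadia siRNA and -0.87 with ESRP2 siRNA. Overlapping intervals were found in all 3 libraries for COX7C, COX7A2 and COX8A.

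COX4I1, the general form of subunit 4, which is known to take part in the control of the enzyme by ATP, had 915 with Arkadia siRNA, 469 with ESRP2 siRNA and 767 with control siRNA. It was 1.64-fold lower with ESRP2 siRNA than with control siRNA and 1.95-fold higher with Arkadia siRNA than with ESRP2 siRNA. COX5B, which binds zinc, had 1275 with Arkadia siRNA, 1476 with ESRP2 siRNA and 887 with control siRNA, and was 1.66-fold higher with ESRP2 siRNA than with control siRNA. COX6A1, the general form of subunit 6A, was 1.87-fold lower with Arkadia siRNA than with control siRNA and 2.13-fold lower than with ESRP2 siRNA. COX6B1, the general form of subunit 6B, which faces the intermembrane space, had 637 with Arkadia siRNA, 328 with ESRP2 siRNA and 467 with control siRNA. In the deposited values COX6B1 passed 1.5-fold only between the knockdowns, with a log2 ratio of 0.96. It was also lower by 1.5-fold with ESRP2 siRNA than with control siRNA after rescaling by the median of ratios (-0.63) or to the upper quartile (-0.68).

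In the deposited values, the other complex IV members did not pass 1.5-fold in any comparison. With rescaling by the median of ratios or to the upper quartile, COX6C passed it between Arkadia and ESRP2 siRNA. COX5A had an FPKM of 294 with Arkadia siRNA, 290 with ESRP2 siRNA and 276 with control siRNA, the closest agreement in the complex. COX7B, the general form of subunit 7B, had 577 with Arkadia siRNA, 612 with ESRP2 siRNA and 421 with control siRNA. COX6C, the least abundant general subunit, had 87.9 with Arkadia siRNA, 59.2 with ESRP2 siRNA and 59.5 with control siRNA, and 17 annotated pseudogenes carry its name. COX7A2L, a protein related to subunit 7A that joins complexes III and IV into supercomplexes, had 128 with Arkadia siRNA, 191 with ESRP2 siRNA and 168 with control siRNA.

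Complex V consists of the catalytic F1 head, a peripheral stalk, a rotating ring of c subunits and further membrane subunits. In the F1 head, ATP5E, the epsilon subunit, had an FPKM of 400 with Arkadia siRNA, 434 with ESRP2 siRNA and 213 with control siRNA. ATP5E was 1.88-fold higher with Arkadia siRNA and 2.03-fold higher with ESRP2 siRNA than in the same control library. The gamma subunit ATP5C1, the shaft that turns inside the head, had 313 with Arkadia siRNA, 680 with ESRP2 siRNA and 479 with control siRNA. ATP5C1 was 1.53-fold lower with Arkadia siRNA than with control siRNA and 2.17-fold lower than with ESRP2 siRNA. Intervals overlapped in all of these comparisons. After the medians of all genes in deciles of GC content were subtracted, ATP5E no longer passed 1.5-fold with ESRP2 siRNA against control siRNA (log2 ratio 0.42). Nor did ATP5C1 then with Arkadia siRNA against control siRNA (-0.38) or against ESRP2 siRNA (-0.49), and rescaling by the median of ratios also ended the first of these (-0.58).

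The alpha, beta and delta subunits of the head did not pass 1.5-fold in the deposited values. ATP5A1 (alpha) had an FPKM of 456 with Arkadia siRNA, 412 with ESRP2 siRNA and 458 with control siRNA. ATP5B (beta, which holds the catalytic sites) had 1130 with Arkadia siRNA, 976 with ESRP2 siRNA and 898 with control siRNA, and ATP5D (delta) had 148 with Arkadia siRNA, 123 with ESRP2 siRNA and 114 with control siRNA. The alpha and beta subunits are present in equal numbers in the head, and the ATP5B level was above the ATP5A1 level in each library.

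In the peripheral stalk, which holds the head still, ATP5J (factor F6) had an FPKM of 133 with Arkadia siRNA, 214 with ESRP2 siRNA and 175 with control siRNA, and passed 1.5-fold only between the knockdowns, 1.61-fold lower with Arkadia siRNA. ATP5F1 (subunit b) had 98.2 with Arkadia siRNA, 146 with ESRP2 siRNA and 129 with control siRNA. ATP5H (subunit d) had 287 with Arkadia siRNA, 289 with ESRP2 siRNA and 253 with control siRNA. ATP5O (the oligomycin sensitivity protein at the top of the stalk) had 361 with Arkadia siRNA, 277 with ESRP2 siRNA and 263 with control siRNA. ATP5F1, ATP5H and ATP5O stayed within 1.5-fold in every comparison of the deposited values.

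The c ring is made of copies of a single mature protein that 3 genes encode, each with its own import sequence. They differed in how they shared the supply. ATP5G2 (chromosome 12, 54058944 to 54070512) had an FPKM of 174 (83.1 to 265) with Arkadia siRNA, 56.0 (25.6 to 86.5) with ESRP2 siRNA and 130 (60.9 to 199) with control siRNA. It was 2.32-fold lower with ESRP2 siRNA than with control siRNA, a log2 ratio of -1.20, the largest fall among the members in that comparison. Between the knockdowns it was 3.10-fold higher with Arkadia siRNA, and the intervals met only at their ends.

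ATP5G1 (chromosome 17, 46970148 to 46973232) had 328 with Arkadia siRNA, 450 with ESRP2 siRNA and 419 with control siRNA. ATP5G3 (chromosome 2, 176040986 to 176046490) had 86.7 with Arkadia siRNA, 128 with ESRP2 siRNA and 101 with control siRNA. Neither passed 1.5-fold. The sum of the 3 genes was 588 with Arkadia siRNA, 634 with ESRP2 siRNA and 650 with control siRNA, so it differed less than ATP5G2 did. ATP5G2 supplied 29.6% of that sum with Arkadia siRNA, 8.84% with ESRP2 siRNA and 20.0% with control siRNA, the widest spread of the 3 genes in ratio. ATP5G1 supplied 55.7% with Arkadia siRNA, 70.9% with ESRP2 siRNA and 64.5% with control siRNA, and ATP5G3 supplied 14.7% with Arkadia siRNA, 20.2% with ESRP2 siRNA and 15.5% with control siRNA.

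The coding sequences of the mature c subunit show how far reads can tell these genes apart. The first 90 of its 225 coding bases are given from GENCODE 29 transcripts, with capitals at the 19 bases that are not the same in all 3 genes.
ATP5G1: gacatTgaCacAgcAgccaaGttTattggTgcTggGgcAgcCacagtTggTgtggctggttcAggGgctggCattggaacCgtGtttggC
ATP5G2: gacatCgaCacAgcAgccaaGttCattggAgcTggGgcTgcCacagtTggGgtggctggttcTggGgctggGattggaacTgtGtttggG
ATP5G3: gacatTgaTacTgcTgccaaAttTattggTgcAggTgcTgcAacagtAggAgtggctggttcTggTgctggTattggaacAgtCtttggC

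Over the whole 225 bases, 173 were the same in all 3 genes and 52 were not, 47 of them at the last base of a codon. ATP5G1 and ATP5G2 shared 88.9% of the bases, and each shared 81.3% with ATP5G3. The longest run without a difference was 11 bases, so a longer read over this part meets at least 1 base that separates a gene from another. The authors' rule for reads that align to several places is not given in the sources used here, and 7 annotated pseudogenes carry the name of ATP5G1 and 3 that of ATP5G2.

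**Figure D4:**
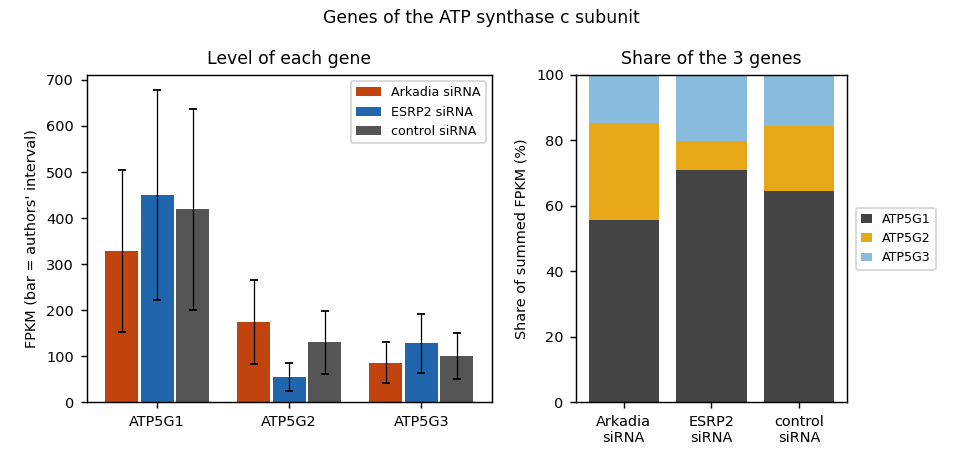
Left, FPKM of ATP5G1, ATP5G2 and ATP5G3 with Arkadia siRNA, ESRP2 siRNA and control siRNA (bars are the values, lines the authors' intervals). Right, the share of each gene in their summed FPKM, in which ATP5G2 holds 8.84% with ESRP2 siRNA, beside 29.6% with Arkadia siRNA and 20.0% with control siRNA.

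Among the membrane subunits of complex V, ATP5I (subunit e, which helps ATP synthase form dimers; chromosome 4, 666225 to 668127) had an FPKM of 393 (177 to 609) with Arkadia siRNA, 199 (86.2 to 311) with ESRP2 siRNA and 148 (64.8 to 232) with control siRNA. It was 2.65-fold higher with Arkadia siRNA than with control siRNA, a log2 ratio of 1.40, the largest rise among the members in that comparison. ATP5L, subunit g and the partner of subunit e in dimers, had 70.5 with Arkadia siRNA, 86.7 with ESRP2 siRNA and 54.3 with control siRNA, and was 1.6-fold higher with ESRP2 siRNA. ATP5J2 (subunit f), the most abundant member of the complex, had 1566 with Arkadia siRNA, 2420 with ESRP2 siRNA and 2468 with control siRNA, and was 1.58-fold lower with Arkadia siRNA than with control siRNA. Subunits e, f and g of the same membrane part thus had log2 ratios of 1.40, -0.66 and 0.37 between Arkadia and control siRNA, with overlapping intervals.

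The related proteins that were grouped with complex V by their symbols were low or even. ATP5S, coupling factor B, had an FPKM of 4.28 with Arkadia siRNA, 10.7 with ESRP2 siRNA and 6.70 with control siRNA, from at most about 71.0 reads with Arkadia siRNA, 245 with ESRP2 siRNA and 148 with control siRNA. It was 1.59-fold higher with ESRP2 siRNA than with control siRNA, and 2.49-fold lower with Arkadia siRNA than with ESRP2 siRNA. Its non-coding isoform had 3.49 with Arkadia siRNA, 8.09 with ESRP2 siRNA and 3.79 with control siRNA, most of the level in each library. The most abundant coding isoform of ATP5S had 0.789 with Arkadia siRNA, 2.17 with ESRP2 siRNA and 1.89 with control siRNA. The higher gene level with ESRP2 siRNA than with control siRNA thus lay mainly in the non-coding isoform, whose intervals overlapped. ATP5SL, grouped here by its symbol alone, had 56.3 with Arkadia siRNA, 45.4 with ESRP2 siRNA and 48.5 with control siRNA.

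The subunit forms known from other tissues were at or near 0, so each subunit with alternative forms was represented by its general form. COX6A2, the heart and muscle form of subunit 6A, had an FPKM of 0.858 with Arkadia siRNA, 0.311 with ESRP2 siRNA and 0.646 with control siRNA, far below COX6A1. COX4I2 (lung), COX7A1 (heart and muscle), COX7B2 (testis), COX6B2 (testis) and COX8C (testis) stayed at or below 0.451 in every library. None of these 6 forms had more than about 4.15 reads in any library, so no difference was detectable at this depth. Among copies, UQCRHL, a copy of UQCRH without introns, had 3.65 with Arkadia siRNA, 2.87 with ESRP2 siRNA and 4.81 with control siRNA. ATP5EP2, a pseudogene of ATP5E, had 1.22 with Arkadia siRNA, 0.888 with ESRP2 siRNA and 1.84 with control siRNA, from about 4, 4 and 8 reads. UQCRHL and ATP5EP2 were 1.68-fold and 2.08-fold lower with ESRP2 siRNA than with control siRNA, but their reads cannot be told from those of their parent genes with certainty. ATP5L2 was listed at 0.172 with Arkadia siRNA and at 0 with ESRP2 and control siRNA, and UQCRBP1 and the ATP5J2-PTCD1 readthrough were listed at 0 in all 3 libraries.

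By complex, the median log2 ratio between Arkadia and control siRNA was 0.17 for complex II, -0.05 for complex III, 0.25 for complex IV and 0.09 for complex V. Between ESRP2 and control siRNA it was 0.02, -0.20, 0.19 and 0.15 in the same order of complexes. The members of each complex lay on both sides of 0 in each of these comparisons. The summed FPKM of complex IV was 8048 with Arkadia siRNA, 11290 with ESRP2 siRNA and 9112 with control siRNA, a sum in which COX6A1 weighs most. Complex III summed to 3006 with Arkadia siRNA, 2924 with ESRP2 siRNA and 2897 with control siRNA, although UQCRB, CYC1, UQCRQ and UQCR11 differed within it.

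Transcript GC content moved with the ratios. Over all genes, Spearman's rho between GC content and log2 ratio was 0.56 for Arkadia versus control siRNA, -0.63 for ESRP2 versus control siRNA and 0.75 for Arkadia versus ESRP2 siRNA (11857 genes that share the same libraries). Over the 43 members with a GC value it was 0.20, -0.61 and 0.60, given as a description. Of the 13 members under 45% GC, 5 were higher and 0 lower with ESRP2 siRNA than with control siRNA. Of all 4078 genes of that class, 1659 were higher and 66 lower. The median log2 ratio of these members was 0.50, against 0.49 for all genes of that class. Of the 9 members of 55% GC or more, 0 were higher and 3 lower, where 135 of all 3799 genes of that class were higher and 1078 lower. The median of these members was -0.51, against -0.34 for all genes of that class.

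SDHD, at 41.0% GC, and CYCS, at 41.6%, belong to the first of these classes, and ATP5G2, at 58.2%, and CYC1, at 61.8%, to the second. After the medians of all genes in deciles of GC content were subtracted, the log2 ratio between ESRP2 and control siRNA was 1.21 for SDHD, 1.09 for CYCS, -0.97 for ATP5G2 and -0.35 for CYC1. The first 3 of these stayed past 1.5-fold and CYC1 did not. Between Arkadia and control siRNA the ratio was then 1.26 for ATP5I, -0.77 for UQCRB and 0.43 for CYC1. Calls also ended for ATP5E, ATP5L (0.25) and ATP5S (0.54) between ESRP2 and control siRNA, for ATP5C1 between Arkadia and control siRNA, and for ATP5C1, COX6B1 (0.48) and UQCRB (-0.58) between Arkadia and ESRP2 siRNA. Other calls were gained by the same subtraction. Between Arkadia and control siRNA, ATP5L, COX6C and COX7B were then higher and ATP5S lower, and higher members went from 5 to 7. Between Arkadia and ESRP2 siRNA, ATP5E, COX6C, SDHC and UQCRFS1 were then higher and ATP5G1 lower. Higher members went there from 8 to 11 and lower ones from 9 to 8. Between ESRP2 and control siRNA, ATP5D was gained as higher, while higher members went from 9 to 7. The part of GC content in these differences was not tested.

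**Figure D5:**
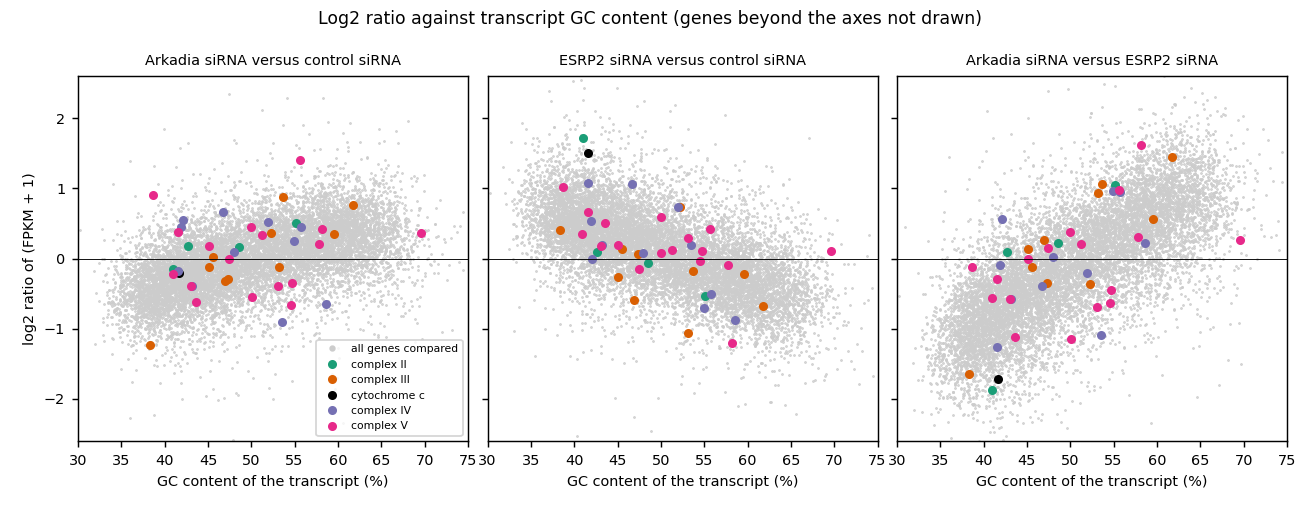
Log2 ratio of (FPKM + 1) against the GC content of the transcript in the 3 comparisons, with all genes compared in grey and the members coloured by complex. SDHD and CYCS lie at the upper left between ESRP2 and control siRNA, at 41.0% and 41.6% GC, and the members follow the slope of the grey cloud there.

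The members are short transcripts, with a median of 1129.5 nt against 2977 nt over all genes compared, and 21 of 44 are under 1000 nt. Among abundant short transcripts, under 1000 nt and at a mean FPKM of 50 or more, 3 of 19 members were higher and 3 lower with Arkadia siRNA than with control siRNA. That is 15.8% each way, and of 359 other genes of that kind 27.9% were higher and 11.4% lower. With ESRP2 siRNA against control siRNA, 26.3% of these members were higher and 10.5% lower, beside 20.6% and 19.2% of the other genes. With Arkadia siRNA against ESRP2 siRNA, 15.8% of these members were higher and 15.8% lower, beside 37.3% and 18.7% of the other genes. Annotated pseudogenes carry the name of 28 of the 44 members, 15 have none and 1 could not be matched. Of the 9 members higher with ESRP2 siRNA than with control siRNA, 7 have such pseudogenes, and ATP5S and UQCR10 have none. Of the 7 lower, 2 have them, 4 have none and 1 was not matched. Of the 5 higher with Arkadia siRNA than with control siRNA, 2 have them, and ATP5I, CYC1 and UQCR11 have none. Of the 5 lower, 4 have them and COX8A has none.

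Many respiratory genes are known to be driven by the factors NRF1 and GABP, the second of which binds ETS-type sites, and the promoters were searched for letters of these kinds. Windows of 250 bases before a gene start, 43 in all, were found for 37 members in RefSeq (GRCh38.p14, a later build than that of the FPKM tables). Each motif was searched on both strands, and a gene with several starts counted when any of its windows held the motif. GCGCATGC, an NRF1-type motif, was found in 9 of 37 members (24.3%), against 3.22% of 27305 genes and 5.99% of 9630 genes compared. CCGGAAGT, an ETS-type motif, was found in 9 of 37 (24.3%), against 4.13% and 8.63%. CCAAT was found in 45.9% of the members, against 37.0% and 42.6%, and TATAAA in 10.8%, against 13.0% and 7.48%. A match is a description of the letters and not a site in use.

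Windows are shown for some of the members past 1.5-fold in a comparison that hold an NRF1-type or an ETS-type motif, chosen after their values were seen, with the motif in capitals and up to 30 bases on each side. All are written in the direction of the gene, and a motif on the opposite strand reads GCATGCGC or ACTTCCGG. The ATP5G2 sequences come from windows of different gene starts.
SDHD, NRF1-type, chr11:112086733-112086800, plus strand: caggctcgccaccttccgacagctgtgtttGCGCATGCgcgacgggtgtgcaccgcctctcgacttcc
SDHD, ETS-type on the opposite strand, chr11:112086765-112086832, plus strand: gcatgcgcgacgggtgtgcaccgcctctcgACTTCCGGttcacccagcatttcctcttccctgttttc
CYCS, NRF1-type on the opposite strand, chr7:25125392-25125459, minus strand: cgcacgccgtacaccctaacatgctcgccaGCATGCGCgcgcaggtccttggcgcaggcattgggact
ATP5G2, NRF1-type, chr12:53676351-53676418, minus strand: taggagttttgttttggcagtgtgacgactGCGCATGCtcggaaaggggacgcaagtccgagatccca
ATP5G2, NRF1-type on the opposite strand, chr12:53676086-53676153, minus strand: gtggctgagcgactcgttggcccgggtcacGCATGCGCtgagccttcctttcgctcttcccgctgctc
ATP5I, NRF1-type, chr4:674317-674384, minus strand: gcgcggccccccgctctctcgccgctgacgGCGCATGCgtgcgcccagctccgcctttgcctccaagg
COX5B, NRF1-type on the opposite strand, chr2:97645896-97645963, plus strand: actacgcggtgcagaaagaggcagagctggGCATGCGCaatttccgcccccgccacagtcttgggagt
COX5B, ETS-type, chr2:97645995-97646061, plus strand: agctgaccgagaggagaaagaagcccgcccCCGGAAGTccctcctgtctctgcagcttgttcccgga
UQCR11, ETS-type, chr19:1605542-1605609, minus strand: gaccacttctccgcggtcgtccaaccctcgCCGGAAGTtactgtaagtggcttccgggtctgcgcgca
UQCRQ, ETS-type, chr5:132866558-132866625, plus strand: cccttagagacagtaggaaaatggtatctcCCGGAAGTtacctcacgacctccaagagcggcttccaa

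SDHD and CYCS, the members with intervals apart between ESRP2 and control siRNA, both hold the NRF1-type motif. In SDHD, and likewise in ATP5C1, its letters read on both strands in overlapping positions. SDHD, COX5B and ATP5J hold both kinds of motif, which do not overlap each other there and in ATP5J lie in windows of different gene starts. The members with the NRF1-type motif did not share a direction between ESRP2 and control siRNA: SDHD, CYCS and COX5B were higher, ATP5G2 was lower, and ATP5C1, ATP5I, ATP5J, COX6A1 and SDHB stayed within 1.5-fold. Nor did those with an ETS-type motif: SDHD and COX5B were higher, UQCRQ and COX8A were lower, and UQCR11, UQCRH, ATP5A1, ATP5H and ATP5J stayed within 1.5-fold.

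Other genes of the pathway gave the setting. Of 33 assembly factors of complexes II to V that were compared, 5 were higher and 3 lower with Arkadia siRNA than with control siRNA, where 10.0% of all genes were higher and 11.9% lower. With ESRP2 siRNA 10 were higher and 0 lower than with control siRNA, beside 20.0% and 11.6% of all genes. With Arkadia siRNA 5 were higher and 11 lower than with ESRP2 siRNA, beside 21.4% and 30.8% of all genes. Their median log2 ratios were 0.05, 0.22 and -0.17, against -0.02, 0.12 and -0.13 over all genes. SDHAF2, which inserts the flavin into SDHA, had an FPKM of 6.65 with Arkadia siRNA, 20.5 with ESRP2 siRNA and 17.6 with control siRNA. TTC19, a factor of complex III, had 9.03 with Arkadia siRNA, 24.7 with ESRP2 siRNA and 14.9 with control siRNA. Each was lowest with Arkadia siRNA and highest with ESRP2 siRNA, and so were the complex IV factors CMC1 and COX16. CMC1 had 14.3 with Arkadia siRNA, 37.6 with ESRP2 siRNA and 24.2 with control siRNA, and COX16 had 32.1 with Arkadia siRNA, 79.6 with ESRP2 siRNA and 44.8 with control siRNA. CMC1 has 34.7% GC and COX16 39.8%, while SDHAF2 has 47.2% and TTC19 48.9%. Of all 4078 genes under 45% GC, 2710 were lower with Arkadia siRNA than with ESRP2 siRNA.

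Of 13 transcriptional regulators of respiration compared, 2 were higher and 1 lower with Arkadia siRNA than with control siRNA (all genes 10.0% and 11.9%), and 6 were higher and 0 lower with ESRP2 siRNA than with control siRNA (all genes 20.0% and 11.6%). With Arkadia siRNA 2 were higher and 4 lower than with ESRP2 siRNA (all genes 21.4% and 30.8%). Their median log2 ratios in these comparisons were 0.04, 0.15 and -0.07. TFAM, which packages mitochondrial DNA and starts its transcription, had an FPKM of 43.0 with Arkadia siRNA, 113 with ESRP2 siRNA and 51.8 with control siRNA. GABPA, the DNA-binding part of GABP, had 9.41 with Arkadia siRNA, 23.8 with ESRP2 siRNA and 12.7 with control siRNA. ESRRA, a nuclear receptor that drives respiratory genes, had 37.3 with Arkadia siRNA, 28.5 with ESRP2 siRNA and 16.3 with control siRNA. TFAM and GABPA were highest with ESRP2 siRNA, and ESRRA was lowest with control siRNA. TFAM has 38.4% GC and GABPA 35.0% GC, in the class in which ratios of all genes were high with ESRP2 siRNA. ESRRA has 64.06% GC and had a log2 ratio of 0.77 between ESRP2 and control siRNA. In its GC class, 135 of 3799 genes were higher with ESRP2 siRNA than with control siRNA and 1078 were lower.

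Complex I, which feeds electrons from NADH into the same chain, had 38 subunits compared. With Arkadia siRNA 10 were higher and 4 lower than with control siRNA (all genes 10.0% and 11.9%), and with ESRP2 siRNA 8 were higher and 10 lower than with control siRNA (all genes 20.0% and 11.6%). With Arkadia siRNA 14 were higher and 9 lower than with ESRP2 siRNA (all genes 21.4% and 30.8%). Their median log2 ratios in these comparisons were 0.21, -0.12 and 0.38. NDUFA5, an accessory subunit, had the largest ratio between the knockdowns among these subunits, a log2 ratio of -2.76, and its FPKM was 12.2 with Arkadia siRNA, 88.5 with ESRP2 siRNA and 32.7 with control siRNA. Like UQCRB, it was lowest with Arkadia siRNA and highest with ESRP2 siRNA. NDUFA5 has 36.4% GC and UQCRB 38.3%, in the class in which most genes were lower with Arkadia siRNA than with ESRP2 siRNA. The next largest ratios between the knockdowns went the other way, with log2 ratios of 1.96 for NDUFS8, 1.94 for NDUFA7 and 1.89 for NDUFA13. Their GC contents are 63.34%, 55.74% and 61.55%, in the class in which 2040 of 3799 genes were higher with Arkadia siRNA than with ESRP2 siRNA.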

How the data were processed

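Polyadenylated RNA of 3 HEK293T samples, 1 per siRNA, was sequenced on an Ion semiconductor instrument, per the labels' protocols. The authors deposited FPKM with lower and upper bounds per gene and per isoform, made on hg19 with Cuffdiff, Cufflinks 2.1.1, TopHat2 2.0.10 and Bowtie2 2.1.0, per the submitters' processing notes. The scaling between libraries, the use of strand and the treatment of reads with several alignments were not given in the sources used here. The deposited FPKM were used without rescaling. Genes entered when their FPKM averaged 1 or more across libraries with status OK, 11975 of 23284, and log2((FPKM + 1)/(FPKM + 1)) was computed, which understates changes of low genes. A gene is called higher or lower at 1.5-fold. With 1 library a group no test or p-value is given. Fold values beside FPKM are plain FPKM ratios.

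The depth was read from the interval bounds: those of 2775 of 3252 low genes were whole multiples of a unit (tolerance 0.01), with the same unit in 84.6% of these. 1 read on 1 kb then equals an FPKM of 0.113, 0.0817 and 0.0849 with Arkadia, ESRP2 and control siRNA. Of the low values, 66.6%, 68.5% and 68.0% lay near a whole number of reads in these libraries. Library depth follows from this only if FPKM was scaled by each library's own reads. Reads per gene are estimates from the longest isoform and cover counting error only. Isoform usage was compared where a gene had 2 or more isoforms that summed to an FPKM of 5 or more in every library, as the points of share that changed. GC content and coding sequences came from GENCODE 29 (97.2% of genes matched by accession and 1.82% by symbol, 118 without) and promoters from RefSeq on GRCh38.p14. Gene coordinates are the hg19 ones of the deposited tables.

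Values are given for members past 1.5-fold in any comparison, for the most and least abundant of each complex, for subunits with several genes and for members with intervals apart, and up to 4 genes of each other list, those with the largest change in any of the 3 comparisons. The members and lists were chosen with earlier results of these data known. Of 26 names of mitochondrially encoded genes none was matched, and these genes were not analysed here. The alternatives were a pseudocount of 0.1, other filters (none, or a mean FPKM of 5), rescaling by the median of ratios or the upper quartile, subtraction of GC or length decile medians and the isoform table, with 2 more chosen after seeing the data. The calling code was tested on simulated data. Python 3.11.15, pandas 2.3.3, numpy 2.4.6, scipy 1.17.1 and matplotlib 3.10.9 were used.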

Additional observations from a re-analysis of the deposited data

How the results depend on the processing

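Each ratio past 1.5-fold of the 25 members concerned kept its direction under all 10 alternatives that gave it a value. The counts of higher and lower members stayed within 1.5 times under each alternative with 1 exception: with rescaling to the upper quartile, 5 members and not 9 were higher with ESRP2 siRNA than with control siRNA, because UQCR10, COX5B, ATP5L and ATP5S fell under the size. The median of the members moved with the scaling. Between ESRP2 and control siRNA it was 0.10, and -0.021 with the median of ratios, -0.068 with the upper quartile and -0.074 after GC subtraction. The median of all genes was 0.12 as deposited, and 0.01 and -0.03 under these rescalings. Between Arkadia and ESRP2 siRNA it was 0.00, and 0.16 under either rescaling, 0.25 after GC subtraction and -0.15 after length subtraction. Between Arkadia and control siRNA it was 0.13, and 0.021 with no filter and -0.016 after length subtraction. The causes were not tested beyond this. Without copies, pseudogenes and the readthrough, or with transcripts of at least 300 nt only, both chosen after seeing the data, all counts stayed within 1.5 times. After GC subtraction, 6 of the 9 higher members and 5 of the 6 lower members with a GC value remained past 1.5-fold between ESRP2 and control siRNA (CYC1 did not, and ATP5EP2 has no GC value), and ATP5D was added. No paired analysis was possible because each group has 1 library, and for the same reason no library could be left out. By the depth estimate, which depends on a scaling that was not given, the Arkadia siRNA library was the shallowest, at about 8.82 M reads. The low members rest on few reads.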
